A study of Mus musculus with 24 samples.

Results

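The collagen genes were taken as every gene whose symbol has the form Col, a number, a and a second number, which gave 44 of the 54232 genes in the table. They fall into 9 structural classes: 11 fibrillar collagens, 6 chains of the basement membrane collagen IV, 9 fibril-associated collagens with interrupted triple helices (FACIT), 6 chains of the beaded filament collagen VI, 3 network-forming short chains, 4 transmembrane collagens, 2 multiplexins, the anchoring fibril collagen VII and 2 others. The rule used no measured value.

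Collagens are secreted or membrane-bound proteins made of 3 chains wound into a triple helix, and each type is built from a fixed choice of chains. Types I and III form the fibrils of granulation tissue and scar, while smaller amounts of other types set the width of those fibrils, sit on their surface, or build the sheets and rods that fasten epidermis and vessels to the dermis. In a healing wound, fibroblasts make most of the fibrillar chains, and keratinocytes and endothelial cells contribute chains of the basement membrane zone.

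The tissue was the dorsal wound of male mice of genotype Lepr (db/db) on the C57BLKS/J strain, which lack a working leptin receptor and become obese and diabetic. All 24 samples share this genotype, a 6 mm punch wound made at 16 weeks of age and an alginate dressing, so no group stands for normal healing or for a wound without a bandage. The 5 groups were control bandages (Ctrl, n = 6) and bandages carrying medium from cultured primary macrophages, which had been polarized to M0 for 4 samples (CM0), to M1 for 4 (CM1), to M2a for 5 (CMA) and to M2c for 5 (CMC). The dressing was renewed on day 3 and the tissue was collected on day 10, at 17.5 weeks of age. Whole tissue was sequenced, so fewer cells of a type and less RNA per cell cannot be told apart. The comparisons asked whether factors released by macrophages in each state altered the wound's transcripts, here those for collagens.

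Total counts ranged from 7267879 to 11985292 per library, and the factors that correct for composition ranged from 0.947 to 1.06. No 2 libraries agreed within counting noise, since the smallest chi-square per degree of freedom between a pair was 5.42. Libraries carry the group name and a number that only names them. Levels are given as CPM, counts scaled to a common library total after that correction. Single genes are ranked against each other as CPM per kilobase (kb) of the principal transcript. Shares of counts and cuts by CPM are not corrected for transcript length. Fibroblast genes such as those for decorin and lumican were present in every library, with summed levels of the 10 listed markers between 4827 CPM in Ctrl 3 and 11125 CPM in CM1 4. Ctrl 3 also held 6900 CPM of hair shaft keratins, against 608.6 CPM in Ctrl 4 and at most 749.6 CPM elsewhere. Results for collagen genes that these libraries alter are given with and without them.

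Collagen transcripts made up 9.80% ± 1.20 (SD, n = 24) of all counts, from 8.04% in CM1 3 to 13.6% in CM1 4. Fibrillar chains supplied 83.5% ± 1.49 of that, and Col1a1, Col1a2 and Col3a1 alone supplied between 74.3% and 80.9% of the family in each library. Of the 44 genes, 42 were detected in every library, 19 averaged at least 100 CPM, 21 lay between 1 and 100 CPM and 4 lay below 1 CPM. The range of count shares between classes was wide, with no correction for transcript length or number of genes. Beaded filament chains took 0.799% of counts, FACIT 0.422%, the 6 basement membrane chains 0.173%, transmembrane collagens 0.0825%, multiplexins 0.0613%, collagen VII 0.0545% and network chains 0.0184%.

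**Figure D1:**
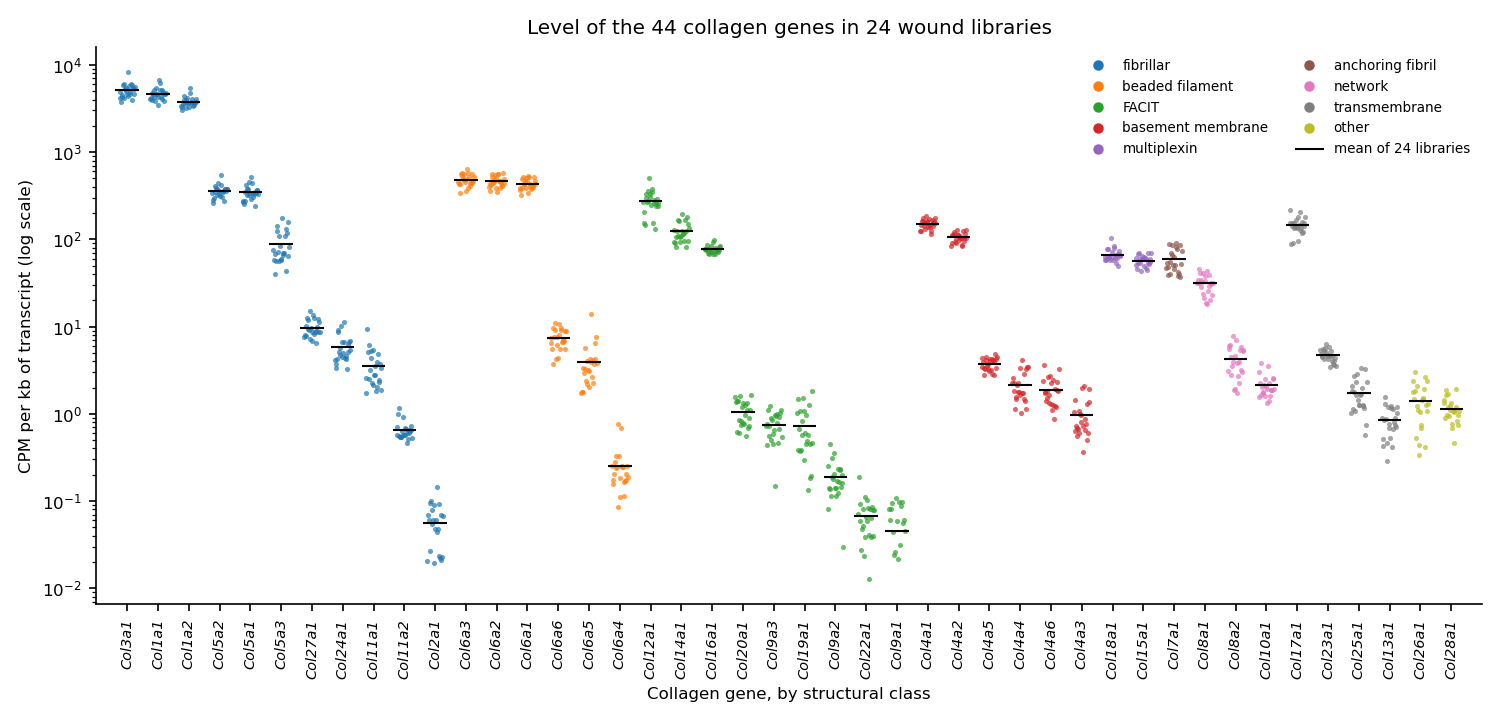
Level of each collagen gene in CPM per kb of principal transcript on a log axis, with 1 point per library (n = 24), points coloured by class and a bar at the mean. Libraries with 0 counts of a gene are not drawn. The 3 main fibrillar chains average between 3799 and 5115 CPM per kb, while Col2a1 and Col9a1 average 0.0556 and 0.0449 CPM per kb.

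The fibrillar class was led by Col3a1 (chr1:45311538-45349706, GRCm38, + strand), the single chain of collagen III and a hallmark of early granulation tissue, at 5115 CPM per kb. Col1a1 (chr11:94936224-94953042, + strand) and Col1a2 (chr6:4504814-4541544, + strand), the chains of collagen I, followed at 4652 and 3799 CPM per kb. The order of Col3a1 and Col1a1 depends on the length used: with the union of all annotated exons Col1a1 ranked first. Col5a1 and Col5a2, chains of the collagen V that nucleates and thins fibrils, stood at 344 and 358 CPM per kb, and their rarer partner Col5a3 at 87.2 CPM per kb. Col27a1 and Col24a1, minor fibrillar chains, stood at 9.71 and 5.80 CPM per kb. Col11a1 and Col11a2, collagen XI chains best known from cartilage, stood at 3.57 and 0.648 CPM per kb. Col2a1, the collagen of hyaline cartilage, had 0 to 6 counts per library.

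The stretch before the start of Col3a1 is shown because this gene had the highest level per length. It is 250 bases on the + strand of mouse chromosome 1 from RefSeq (GRCm38.p6), chr1:45311288-45311537, and touches no annotated exon. The motifs searched, on both strands, were the CCAAT box, the GC box core GGGCGG and the TATA box letters TATAAA. Capitals mark the 1 match, of the TATA box letters, which begins 117 bases before the annotated start.

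Col3a1: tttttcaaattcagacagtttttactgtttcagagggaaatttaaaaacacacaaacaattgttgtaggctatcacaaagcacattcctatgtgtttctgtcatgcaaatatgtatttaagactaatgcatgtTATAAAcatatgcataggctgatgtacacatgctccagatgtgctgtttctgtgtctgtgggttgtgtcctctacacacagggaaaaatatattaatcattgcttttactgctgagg

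Promoter windows were matched for 35 of the 44 genes. GGGCGG was present in 21 of those 35, CCAAT in 13 and TATAAA in 5, where 32.7%, 33.8% and 12.4% of all 32851 windows of this length hold them. The counts and shares differ in unit: a gene with several windows counts if any of them matches, while the share is per window. Of the 35 genes, 20 have a window that touches no annotated exon. A match describes letters in the window and says nothing of binding.

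Among FACIT collagens, which sit on fibril surfaces, Col12a1 stood at 272 CPM per kb, Col14a1 at 123 and Col16a1 at 77.2. Col20a1, Col9a3 and Col19a1 lay between 0.719 and 1.06 CPM per kb, and Col9a2, Col22a1 and Col9a1 lay below 0.2. Col9a1 to Col9a3 encode the cartilage collagen IX. Of the 9 listed cartilage markers 6 had enough counts to be tested, Matn1, Hapln1 and Cnmd averaged under 1 CPM, none was at 0, and the 9 summed to 62.4 to 112 CPM per library. The Col9a3 value is uncertain because 6.07% of its exon bases overlap Tcfl5 on the other strand and the reads carry no strand.

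The 3 main chains of collagen VI, a microfibril around fibrils and cells, stood at 481 CPM per kb for Col6a3, 461 for Col6a2 and 431 for Col6a1. Per kb of the union of all annotated exons they stood at 362, 219 and 404, so their relative levels depend on the length used. The alternative chains that can replace Col6a3 were lower, at 7.32 CPM per kb for Col6a6, 3.93 for Col6a5 and 0.251 for Col6a4. In the basement membrane class, Col4a1 and Col4a2, which form the common collagen IV network of vessels and epithelia, stood at 150 and 105 CPM per kb. Col4a5 followed at 3.74, Col4a4 at 2.15, Col4a6 at 1.89 and Col4a3 at 0.969 CPM per kb. These 4 chains form the more tissue-restricted networks, and the Col4a3 value is uncertain because 5.65% of its exon bases overlap a non-coding gene on the other strand. Col18a1 and Col15a1, multiplexins of basement membrane zones, stood at 66.6 and 57.1 CPM per kb, and Col7a1, the anchoring fibril chain below the epidermis, at 59.1.

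Col17a1, the hemidesmosomal collagen of basal keratinocytes, was the leading transmembrane member at 145 CPM per kb. Col23a1 stood at 4.66, Col25a1 at 1.73 and Col13a1, a collagen of cell-matrix adhesions, at 0.845 CPM per kb. Network chains were led by Col8a1, a short chain of vessel walls and subendothelium, at 31.2 CPM per kb. Col8a2 followed at 4.20 and Col10a1, known from hypertrophic cartilage, at 2.11 CPM per kb. Col26a1 and Col28a1, the remaining members, stood at 1.42 and 1.14 CPM per kb.

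Each conditioned medium was compared with control bandages in a single edgeR quasi-likelihood fit to all 24 libraries. Of the 44 collagen genes 40 had enough counts to be tested, and Col2a1, Col9a1, Col9a2 and Col22a1 did not. At a Benjamini-Hochberg adjusted p under 0.05, edgeR called 0 collagen genes in each of the 4 media, in their mean and between any 2 media, and the share over all 18978 genes tested was 0.00% in each. DESeq2 and limma with voom, which here weighted each library by its quality, also called 0. The smallest edgeR adjusted p of a collagen gene was 0.546, for Col23a1 in CMC. All 4 media were set against the same 6 control libraries, so their values are not independent of each other.

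An unadjusted p under 0.05 was reached by 1 collagen gene in each medium. For CM0 that was Col12a1, where 4.92% of all genes reached it, and DESeq2 gave 1 and voom 3. For CM1 it was Col26a1 (7.04% of all genes, with 1 by DESeq2 and 2 by voom). For CMA it was Col6a5 (6.61%, with 1 and 0), and for CMC it was Col23a1 (8.55%, with 4 and 6). Averaging the 4 media gave a count of 0 where 9.42% of all genes reached it, with 0 by DESeq2 and 5 by voom. By edgeR, 1 of 40 genes or fewer is a smaller share than that over all genes in each case. All of these shares are from edgeR. Those of DESeq2 and voom are not given here, so their counts cannot be set against a share over all genes. No collagen gene had a medium's range clear of the control range, where 0.801%, 1.10%, 0.327% and 0.543% of all genes had one in CM0, CM1, CMA and CMC.

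**Figure D2:**
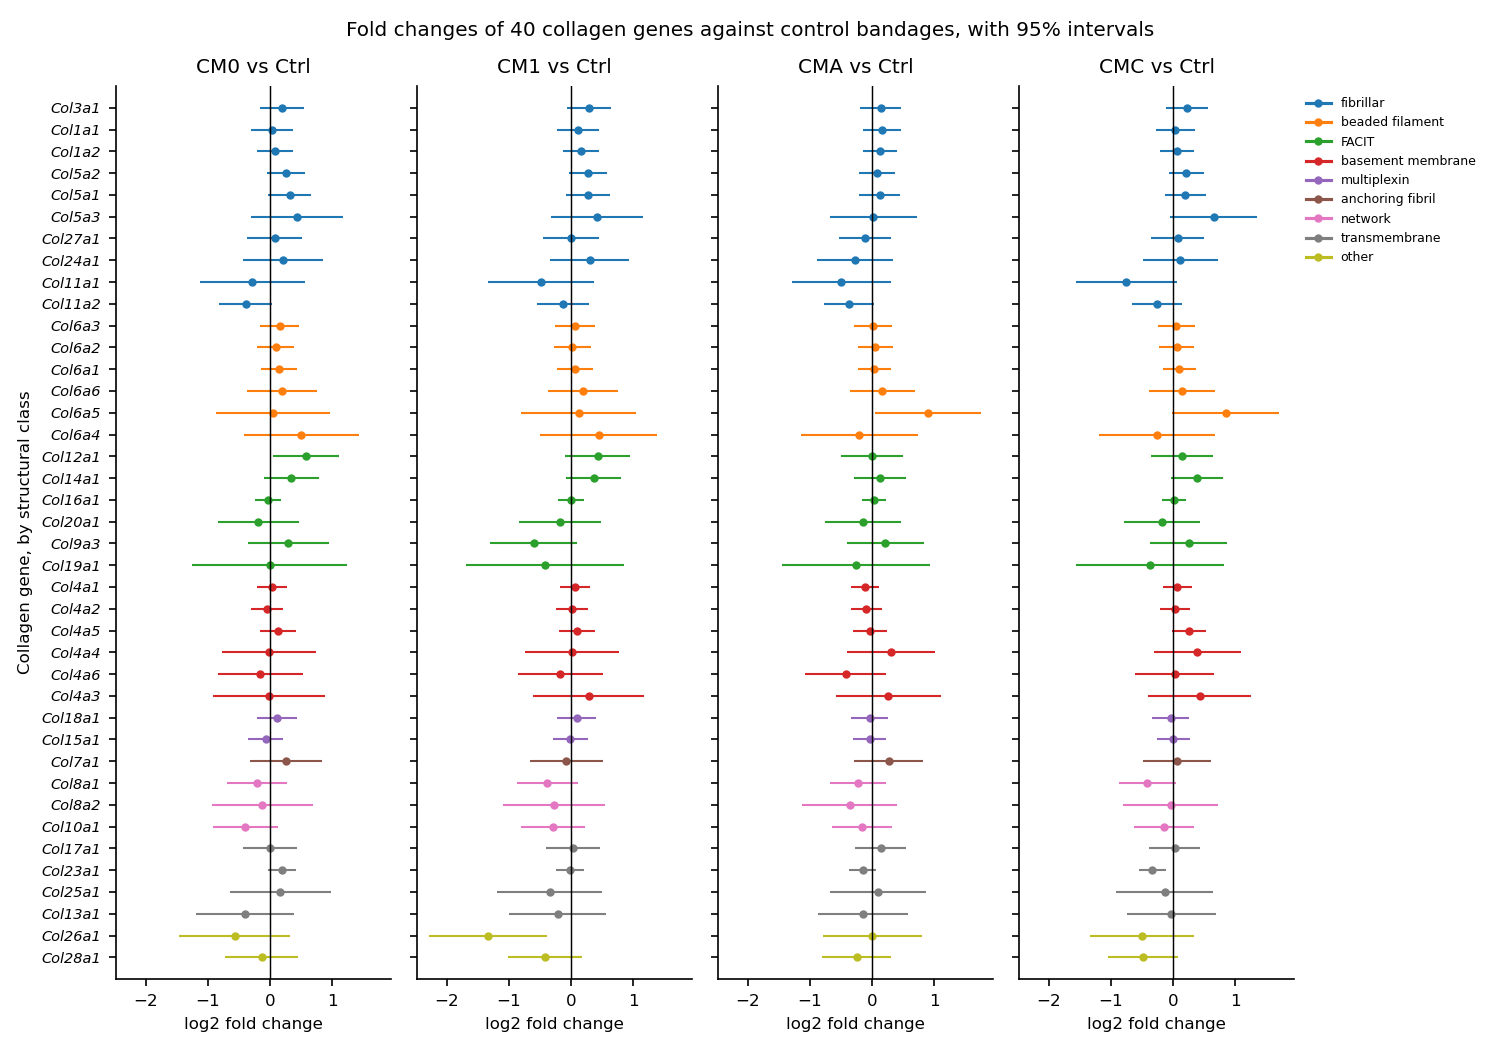
Log2 fold change of the 40 tested collagen genes in each medium against control bandages, with 95% intervals from the edgeR fit, ordered and coloured by class. Intervals are narrow for abundant genes such as Col16a1 and wide for scarce ones such as Col19a1, and 4 of the 160 intervals leave 0 out.

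The width of the intervals shows what the libraries could resolve. In CM0, 33 of the 40 genes had a 95% interval inside a 2-fold difference either way, where 83.9% of all genes did. The number was 29 in CM1, 32 in CMA and 31 in CMC, beside 82.7%, 84.3% and 84.6% of all genes, and 36 for the mean of the media beside 92.3%. Over the 40 genes the medians of the log2 fold change, in the order CM0, CM1, CMA, CMC, were 0.06, 0.01, 0.00 and 0.04, and -0.06 in CM1 without CM1 4. Values above 0 were found for 23, 23, 20 and 26 of 40 genes, beside 47.4%, 48.7%, 46.7% and 48.4% of all genes, and for 25 when the media were averaged, beside 47.1%.

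Col1a1 stood at 23893, 24430, 23495, 28358, 27528 and 30562 CPM in Ctrl 1 to Ctrl 6. The CM0 libraries had 25478, 22707, 27268 and 32268 CPM and the CM1 libraries 27786, 25100, 20612 and 40273 CPM. The values were 36418, 30162, 25573, 30731 and 24132 CPM in CMA and 28961, 22979, 27776, 27474 and 28070 CPM in CMC. All 5 ranges overlapped, and CM1 held both the lowest and the highest library of the series. The log2 fold changes against Ctrl were 0.03, 0.11, 0.16 and 0.04 in CM0, CM1, CMA and CMC, with SE 0.16, 0.16, 0.15 and 0.15 and edgeR adjusted p of at least 0.859. Without CM1 4 the CM1 value became -0.11. With library totals in place of the composition correction the CM0 and CMC values became -0.02 and -0.01, so no direction can be given for Col1a1. Col1a2 had fold changes between 0.06 and 0.15 on the log2 scale (SE at most 0.14), and its CM1 value was -0.02 without CM1 4.

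Col3a1 had larger differences, again inside the spread. In controls it ranged from 20844 to 32980 CPM with a median of 24540. The CM0 libraries had 33294, 23126, 29791 and 30385 CPM and the CM1 libraries 28070, 25655, 24593 and 45663 CPM. The CMA libraries had 31699, 25455, 27074, 33991 and 22007 CPM and the CMC libraries 32770, 30324, 25474, 29668 and 30804 CPM. All groups overlapped the controls, whose highest library, Ctrl 6, lay above every CMC library. The log2 fold changes were 0.19, 0.28, 0.14 and 0.22 (SE 0.17, 0.17, 0.16 and 0.16), with edgeR adjusted p of 0.949, 0.727, 0.890 and 0.716. The CM1 value was 0.03 without CM1 4. Ctrl 3 held the lowest value of the series and CM1 4 the highest, the same libraries that held the lowest and highest fibroblast marker sums, and the part of those sums in the Col3a1 values was not tested.

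The ratio of Col3a1 to Col1a1 counts, which needs no scaling between libraries, averaged 1.04 ± 0.132 (SD, n = 24) and ranged from 0.844 in CMA 2 to 1.32 in CMC 2. A higher share of collagen III is a feature of young granulation tissue. The control ratio was 0.968 ± 0.110 (SD, n = 6). The ratio with medium was 1.09 ± 0.157 for M0 and 1.09 ± 0.0886 for M1 (n = 4 each), 0.958 ± 0.117 for M2a and 1.11 ± 0.144 for M2c (n = 5 each). Two-sided exact permutation tests against Ctrl gave p = 0.20, 0.105, 0.844 and 0.0952, and adjusted values of 0.518, 0.419, 0.844 and 0.419 over the 8 ratio tests. The smallest p these designs allow is 0.00952 with 4 libraries and 0.00433 with 5. The ratio of the 2 collagen I chains, Col1a1 to Col1a2, was steadier at 1.36 ± 0.0828, and its smallest exact permutation p against Ctrl was 0.305, adjusted 0.518.

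The collagen V chains had log2 fold changes above 0 in every medium without passing the test, but in CMA and CM1 this did not hold under every setting. In CMA, Col5a3 was at -0.03 with library totals and -0.18 without CMA 4, Col5a1 and Col5a2 were at -0.01 without CMA 1, and without Ctrl 3, Ctrl 4 and CM1 3 Col5a2 was at -0.03 and Col5a3 at -0.14. In CM1, Col5a3 was at -0.07 without CM1 4. Col5a2 ranged from 1706 to 2722 CPM in Ctrl and from 2400 to 2506 CPM in CMC. Its log2 fold changes were 0.25, 0.27, 0.08 and 0.21 in CM0, CM1, CMA and CMC, with the smallest edgeR unadjusted p, 0.0744, in CM1. Without CM1 4 the CM1 value was 0.07. Col5a1 had values of 0.31, 0.27, 0.12 and 0.19 (SE between 0.16 and 0.17), and 0.05 in CM1 without CM1 4. Col5a3 ranged most among the abundant fibrillar genes, from 247 CPM in Ctrl 3 to 1079 CPM in CM1 4, and its log2 fold changes of 0.43, 0.42, 0.02 and 0.65 carried SE between 0.33 and 0.35. Its CM0 value was 0.16 without CM0 1. In CMC it stood at 812, 718, 395, 958 and 503 CPM against 247 to 772 CPM in Ctrl.

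**Figure D3:**
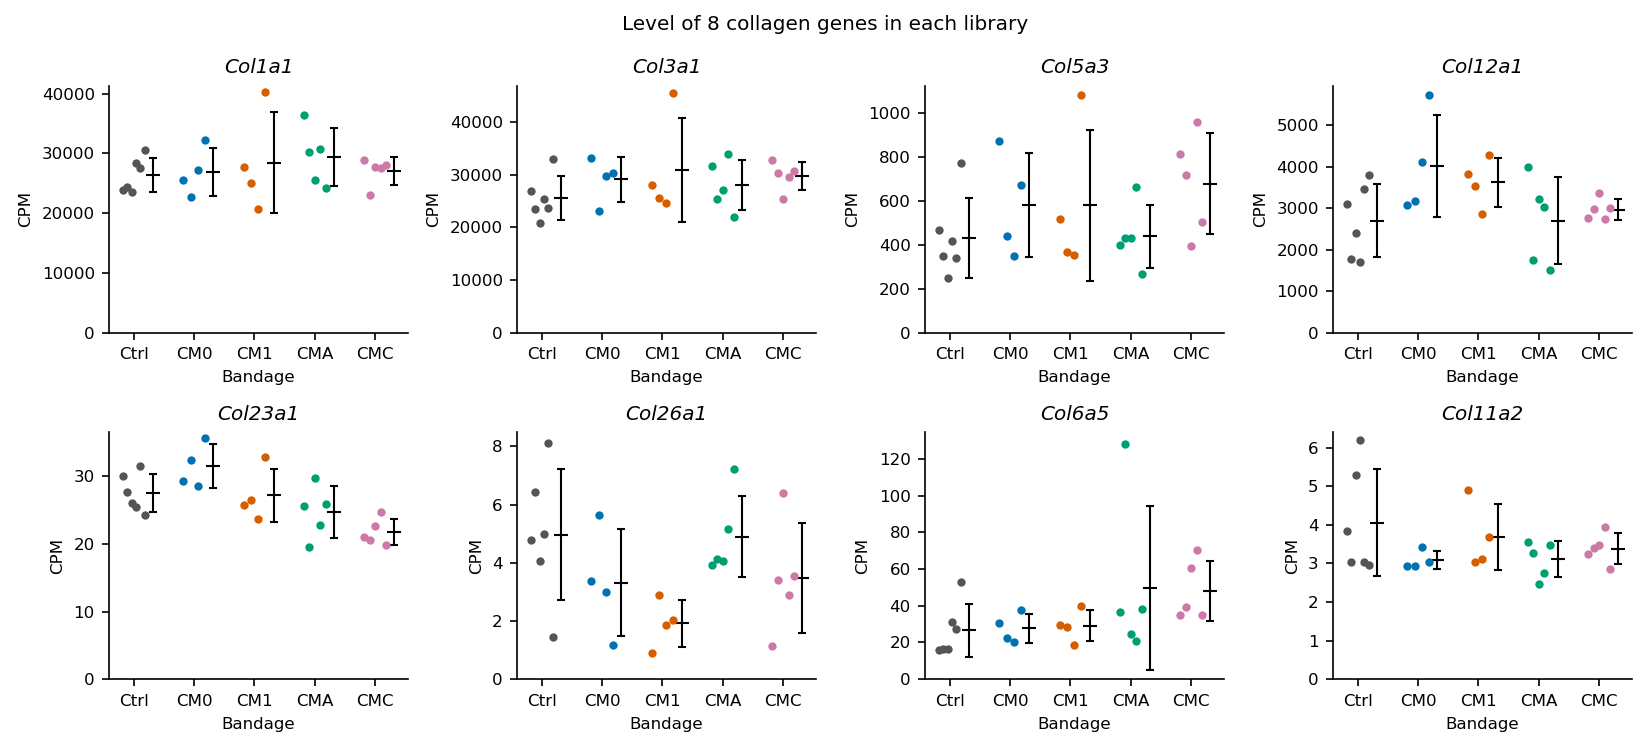
CPM of 8 collagen genes in each library by bandage (Ctrl n = 6, CM0 and CM1 n = 4, CMA and CMC n = 5), with the mean and SD beside the points and axes from 0. Controls overlap every medium in each panel, and single libraries set the spread of Col1a1 and Col3a1 in CM1 and of Col6a5 in CMA.

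Among the minor fibrillar chains, Col11a1 and Col11a2 had values below the controls. Col11a1 stood at 13.2, 19.8, 72.7, 39.0, 47.4 and 19.4 CPM in Ctrl 1 to Ctrl 6, and its log2 fold changes were -0.29, -0.48, -0.50 and -0.75 with SE between 0.38 and 0.41. Without Ctrl 3, Ctrl 4 and CM1 3 they were 0.21, 0.09, 0.00 and -0.25. Col11a2 stood at 3.85, 3.04, 5.29, 6.21, 3.03 and 2.95 CPM in Ctrl 1 to Ctrl 6, and between 2.48 and 4.90 CPM in the 18 libraries with medium. Its log2 fold change for the mean of the media was -0.29 (SE 0.15, edgeR unadjusted p = 0.0603), and it became 0.05 without Ctrl 3, Ctrl 4 and CM1 3. The 2 highest Col11a2 values came from Ctrl 3 and Ctrl 4, which also had the highest hair shaft keratin sums among controls. CMA 3 had a higher hair shaft sum than Ctrl 4, 749.6 against 608.6 CPM, and the lowest Col11a2 value of all libraries, 2.48 CPM. The part of hair shaft tissue in the Col11a2 values was not tested. Col27a1 averaged 73.6 CPM in Ctrl and had log2 fold changes between -0.11 and 0.07.

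Col12a1 (chr9:79598991-79718831, GRCm38, minus strand), which binds collagen I fibrils and is strongly made in tissue under tension, had the smallest p of the family in CM0. It stood at 3077, 3172, 4116 and 5741 CPM in CM0. In Ctrl 1 to Ctrl 6 it stood at 3099, 1768, 2397, 1701, 3467 and 3793 CPM. The log2 fold change was 0.57 (SE 0.25, edgeR unadjusted p = 0.0332, adjusted 0.946), a 1.49-fold difference with a 95% interval from 1.04 to 2.14. CM0 2 and CM0 1 lay inside the control range, 2 libraries lay above it, and without CM0 4 the log2 value was 0.35. The value was 0.43 in CM1, -0.00 in CMA and 0.14 in CMC. The 5 CMC libraries were close together, between 2743 and 3360 CPM, while the 5 CMA libraries ranged from 1504 to 3993 CPM. Col14a1, another fibril-surface collagen, had log2 fold changes of 0.34, 0.36, 0.13 and 0.38 (SE between 0.20 and 0.21). Its CM1 value was 0.13 without CM1 4, its CM0 value 0.21 without CM0 1 and its CMA value -0.04 without CMA 4. Over the 24 libraries Col16a1 had the narrowest range of the tested collagen genes, with a highest library 1.47 times its lowest, and log2 fold changes between -0.03 and 0.03 (SE at most 0.10).

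Collagen VI chains stayed close to control levels. Col6a1 averaged 1695 ± 321 CPM in Ctrl (n = 6), and its log2 fold changes ranged from 0.04 to 0.14. Col6a2 had values from 0.02 to 0.09 and Col6a3 from 0.01 to 0.15, all with SE between 0.13 and 0.15. Col6a5 (chr9:105856078-105960643, minus strand), one of the alternative chains, had the smallest p of the family in CMA. It stood at 36.7, 128, 24.4, 20.9 and 38.3 CPM in CMA against 15.9 to 53.1 CPM in Ctrl. The log2 fold change was 0.89 (SE 0.41, edgeR unadjusted p = 0.0413, adjusted 0.733), and it was 0.17 without CMA 2, the library at 128 CPM. In CMC, Col6a5 stood at 34.8, 39.2, 60.5, 70.3 and 35.2 CPM, with a log2 fold change of 0.84 (SE 0.41, edgeR adjusted p = 0.590). There 5 of the 6 controls lay below all 5 CMC libraries and Ctrl 6 lay inside their range.

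Col4a1 ranged from 816 to 1167 CPM in Ctrl, and its log2 fold changes were 0.03, 0.06, -0.12 and 0.07 with SE between 0.11 and 0.12. Col4a2 had values between -0.09 and 0.03. Col4a5 had 0.26 (SE 0.13) in CMC, with libraries between 22.1 and 31.2 CPM against 18.4 to 28.6 CPM in Ctrl, and an edgeR unadjusted p of 0.0598. Values of the scarcer chains were less precise, with -0.42 (SE 0.31) for Col4a6 in CMA and 0.42 (SE 0.40) for Col4a3 in CMC. Of the 6 chains of collagen IV, 6, 5, 3 and 4 had an interval inside a 2-fold difference in CM0, CM1, CMA and CMC. Col18a1 and Col15a1 had log2 fold changes between -0.07 and 0.11. Col7a1 ranged from 364 to 818 CPM in Ctrl, from 417 to 579 CPM in CM1 and from 339 to 794 CPM in CMC, and its log2 fold changes of 0.25, -0.08, 0.26 and 0.06 had SE between 0.26 and 0.28.

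The 3 network chains had log2 fold changes below 0 in all 4 media, none with an unadjusted p under 0.05. Without Ctrl 3, Ctrl 4 and CM1 3, Col8a2 was instead at 0.10 in CM0 and 0.19 in CMC. Without CM0 4 Col8a2 was at 0.12 in CM0, without CMC 3 at 0.07 in CMC, and without Ctrl 5 Col10a1 was at 0.02 in CMA and 0.04 in CMC. Col8a1 ranged from 161 to 235 CPM in Ctrl with a median of 174. The CM0 libraries had 145, 167, 212 and 119 CPM and the CM1 libraries 108, 195, 172 and 95.5 CPM. The CMA libraries had 224, 91.9, 131, 149 and 199 CPM and the CMC libraries 102, 159, 158, 118 and 162 CPM. Each medium had libraries below all controls, 4 of 5 in CMC, and at least 1 library inside their range. The log2 fold changes were -0.21, -0.38, -0.23 and -0.41 (SE between 0.22 and 0.23), with the smallest edgeR adjusted p, 0.618, in CMC. Col10a1 had values of -0.40, -0.29, -0.16 and -0.14 on 37 to 98 counts per library, and Col8a2 had values between -0.36 and -0.04 with SE up to 0.39. The median over the 3 chains was -0.21, -0.29, -0.23 and -0.14. The same 6 controls enter all 4 values.

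**Figure D4:**
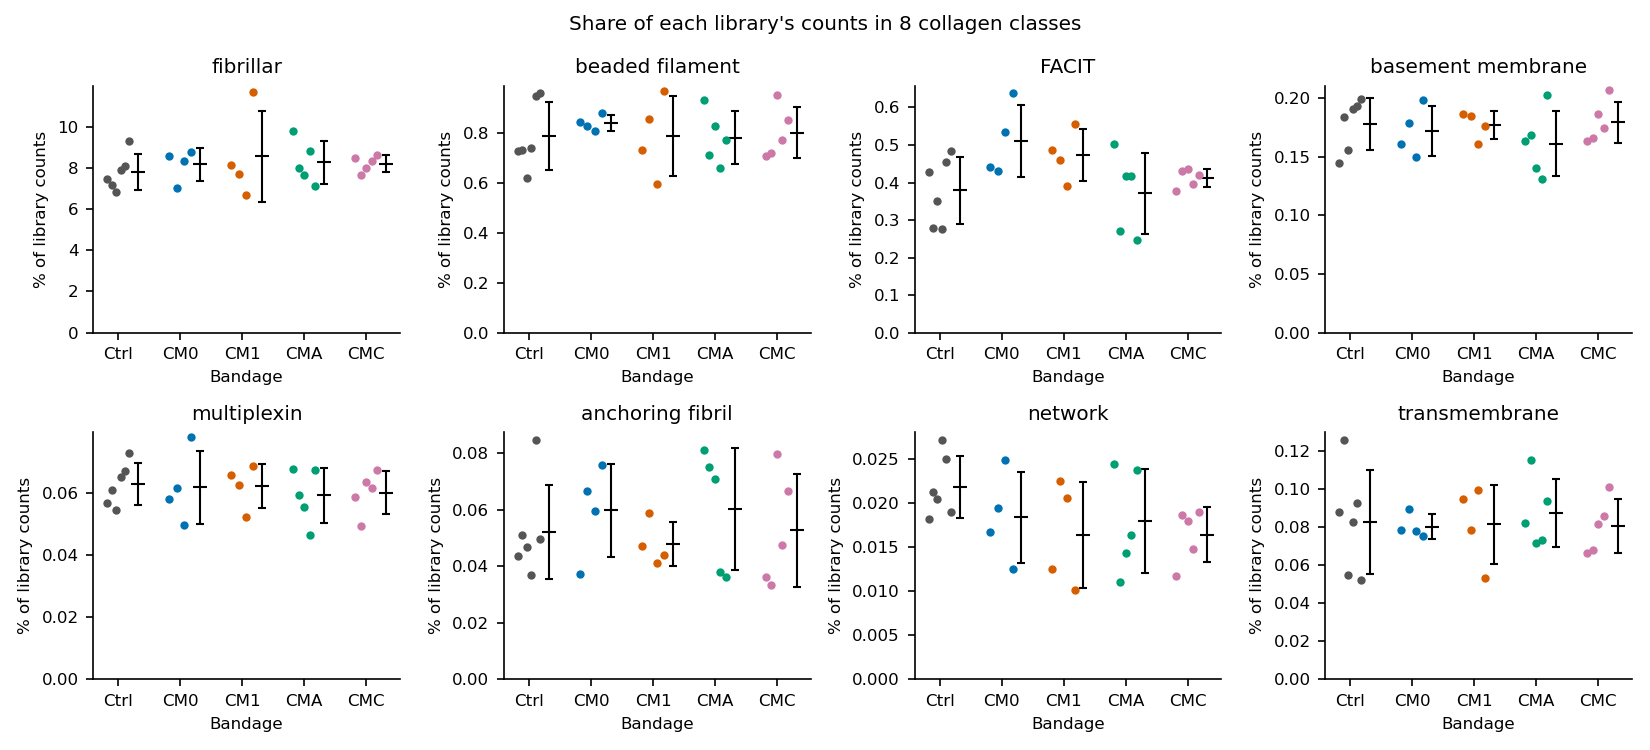
Percent of each library's counts in 8 collagen classes by bandage (Ctrl n = 6, CM0 and CM1 n = 4, CMA and CMC n = 5), with mean and SD beside the points and axes from 0. Fibrillar shares lie between 6.68% and 11.7%, and the groups overlap in every class.

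Transmembrane collagens differed in how they behaved. Col17a1 ranged from 486 to 1194 CPM in Ctrl, and its log2 fold changes lay between -0.00 and 0.14 with SE between 0.20 and 0.21. Col13a1 averaged 2.92 CPM in Ctrl and had values between -0.40 and -0.03 with SE up to 0.38. Col23a1 (chr11:51289920-51583918, GRCm38, + strand), a collagen that is shed from the cell surface, had the smallest p of the family in CMC and in the test for any difference among the 5 groups. It stood at 30.1, 27.6, 26.0, 25.5, 31.5 and 24.3 CPM in Ctrl 1 to Ctrl 6 and at 21, 20.6, 22.7, 24.7 and 19.9 CPM in CMC. In CMC 4 libraries lay below every control, and CMC 4 lay above Ctrl 6. The log2 fold change was -0.34 (SE 0.10, edgeR unadjusted p = 0.00371, adjusted 0.546), 0.791 of the control level with a 95% interval from 0.681 to 0.919. Leaving out any 1 library kept the value between -0.39 and -0.30. The depth behind it was 161 to 363 counts per library.

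The test for any difference among the 5 groups gave Col23a1 an edgeR unadjusted p of 0.00173 and an adjusted p of 0.929. It was the 1 collagen gene under 0.05 there, where 4.65% of all genes were by edgeR. DESeq2 gave 3 and voom 2, again without their own share over all genes. Its level was 29.4, 32.4, 28.5 and 35.7 CPM in CM0, then 25.7, 26.5, 23.8 and 32.8 CPM with CM1, and 25.7, 19.5, 29.8, 22.8 and 25.9 CPM with CMA. Between CMC and CM0 all libraries were separated, with the highest CMC library at 24.7 CPM and the lowest CM0 library at 28.5 CPM. That log2 difference was -0.53 (SE 0.11, edgeR unadjusted p = 1.05e-04, adjusted 0.996), and 3.72% of all genes had an unadjusted p under 0.05 and 1.82% separated ranges in that comparison. Against CM0 the CMA value was -0.35 (SE 0.11, edgeR unadjusted p = 0.00579), with overlapping ranges.

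The 250 bases before the Col23a1 start are shown because this gene had the smallest p of the family. They lie on the + strand of chromosome 11 (RefSeq, GRCm38.p6), chr11:51289670-51289919, touch no annotated exon, and hold 1 match of the motifs searched, a GGGCGG read on the opposite strand whose 6 bases, in capitals, begin 11 bases before the start.

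Col23a1: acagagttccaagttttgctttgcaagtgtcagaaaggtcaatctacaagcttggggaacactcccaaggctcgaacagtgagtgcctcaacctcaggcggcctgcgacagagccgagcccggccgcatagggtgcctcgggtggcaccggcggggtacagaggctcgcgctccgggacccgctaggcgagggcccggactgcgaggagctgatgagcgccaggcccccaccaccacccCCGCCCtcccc

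Col26a1 (chr5:136741759-136883209, GRCm38, minus strand), a secreted member, had the smallest p in CM1. It stood at 0.911, 2.88, 1.87 and 2.02 CPM in CM1 and at 4.79, 6.44, 4.05, 5.00, 8.12 and 1.43 CPM in Ctrl 1 to Ctrl 6. The log2 fold change was -1.33 (SE 0.46, edgeR unadjusted p = 0.00820, adjusted 0.695), 0.398 of the control level with a 95% interval from 0.206 to 0.769. Ctrl 6 lay inside the CM1 range. These values rest on 8 to 77 counts per library. The CMA libraries, between 3.93 and 7.23 CPM, lay above all CM1 libraries, with a log2 difference of -1.33 for CM1 against CMA (SE 0.47, edgeR unadjusted p = 0.00972, adjusted 0.995), where 4.00% of all genes had an unadjusted p under 0.05 and 1.06% separated ranges.

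In the other comparisons between media few collagen genes had an unadjusted p under 0.05. There was 1 for CM1 against CM0, Col9a3 (2.22% of all genes), and 2 for CMA against CM0, Col12a1 and Col23a1 (3.14%). There were 2 for CM1 against CMC, Col23a1 and Col9a3 (2.71%), and 1 for CMA against CMC, Col4a5 (6.16%). All of these ranges overlapped. Col9a3 and Col4a5 were named here after their values were seen. The log2 difference of Col9a3 for CM1 was between -0.89 and -0.82 against the other 3 media (SE between 0.35 and 0.36), on 4 to 41 counts per library. The lowest of these counts, 4, was in CM1 4.

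The genes that act on collagen were read from lists of known function. Of 31 tested genes for collagen synthesis, processing and cross-linking, 0 passed the adjusted threshold in any medium, and 1, 5, 1 and 4 had a higher value with an unadjusted p under 0.05 in CM0, CM1, CMA and CMC, and 0 a lower one. Over all genes tested the share with a higher value at that p was 2.13%, 3.37%, 3.95% and 3.77%, and for the mean of the media it was 4.22% beside 7 of these 31. Values above controls were found for 30, 31, 27 and 30 of the 31, beside 47.4%, 48.7%, 46.7% and 48.4% of all genes. The 31 genes had median log2 fold changes of 0.15, 0.21, 0.10 and 0.18, led in CM0 and CM1 by Serpinh1, the collagen chaperone, at 0.34 and 0.37. Of 15 genes for collagen breakdown and its inhibitors, 0, 3, 0 and 1 had a higher value with an unadjusted p under 0.05, with Mrc2, an endocytic collagen receptor, the smallest p in each medium. Of 8 collagen receptor genes the counts were 1, 0, 0 and 2, led by Itga11 in CM0 at 0.31 and Ddr2 in CMC at 0.33.

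Beside these values, the 10 fibroblast markers stood above controls in 10, 10, 7 and 9 of 10 cases, with median log2 fold changes of 0.26, 0.31, 0.07 and 0.20. Over all genes tested the share above 0 was 47.4%, 48.7%, 46.7% and 48.4%, also for the other marker counts below. The summed fibroblast level was 4827 to 8506 CPM in Ctrl, lowest in Ctrl 3. With medium it was 7398 to 8718 CPM for M0, 6380 to 11125 CPM for M1, 5309 to 8134 CPM for M2a and 6933 to 7791 CPM for M2c. The 8 endothelial markers had a summed level of 301 to 597 CPM in Ctrl and 301 to 644 CPM over all libraries. The medians were 452 CPM in Ctrl and 494, 539, 404 and 468 CPM in CM0, CM1, CMA and CMC. The 8 basal keratinocyte markers summed to 4378 to 7415 CPM in Ctrl and 4378 to 8554 CPM over all. Their median was 5363 CPM in Ctrl and 6439, 6529, 7987 and 6845 CPM in CM0, CM1, CMA and CMC. The CMA libraries stood at 8132, 8516, 7794, 7987 and 5927 CPM. Over all libraries the sums ran from 685 to 1178 CPM for pericytes and smooth muscle, 1239 to 3228 CPM for macrophages, 2041 to 12330 CPM for skeletal muscle, 458 to 2014 CPM for adipocytes, 146 to 224 CPM for Schwann cells and 62.4 to 112 CPM for cartilage. Tagln, 1 of the 8 pericyte and smooth muscle markers, averaged under 1 CPM, so nearly all of that sum comes from the other 7. The reads carry no strand, and whether overlap with another gene lowered the Tagln count was not tested. The Ctrl ranges of these 6 sums overlapped those of each medium, and no marker of the 10 lists was at 0. Against controls, 9, 10, 10 and 9 of 10 skeletal muscle markers had a value below 0, with medians of -0.13, -0.87, -0.74 and -0.47 in CM0, CM1, CMA and CMC. The highest controls were Ctrl 2 and Ctrl 4, at 9682 and 12330 CPM of the muscle sum. The median muscle sum was 4775 CPM in Ctrl and 4678, 3289, 4108 and 5024 CPM in CM0, CM1, CMA and CMC. At the median, CMC was thus not below controls. All 5 tested hair shaft markers were below 0 in each medium (medians -4.00, -5.17, -2.82 and -5.32). The control mean behind this came largely from Ctrl 3, at 6900 CPM of the hair shaft sum. The median hair shaft sum was 15.8 CPM in Ctrl and 21.7, 32.3, 101 and 16.5 CPM in CM0, CM1, CMA and CMC. At the median, controls were thus not above any medium. Of 8 adipocyte markers 6, 8, 8 and 8 were above 0 (medians 0.02, 0.22, 0.25 and 0.50). None of these markers passed the adjusted threshold. The part of cell makeup in the collagen values and in the synthesis genes was not tested.

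Collagen genes varied more between libraries than genes in general. The median SD of log2 CPM over the 24 libraries was 0.379 for the 40 tested collagen genes and 0.268 for all genes tested. Among genes averaging at least 100 CPM it was 0.233 for 19 collagen genes and 0.151 for 1879 genes. Among the tested collagen genes, CM1 4 held the highest value of Col1a1, Col1a2, Col3a1, Col5a1, Col5a2, Col5a3, Col6a1, Col6a3, Col14a1 and Col24a1. It held the lowest of Col10a1, Col8a2, Col4a3, Col4a4 and Col9a3, beside the highest fibroblast sum and the lowest adipocyte sum, 458 CPM. Ctrl 3 held the lowest value of Col1a2, Col3a1, Col5a2, Col5a3, Col6a1, Col6a3 and Col17a1 and the highest of Col11a1.

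Correlations across the 24 libraries were computed for 17 relations on log2 CPM. The permutation p-values of Pearson's r and Spearman's rho were adjusted together over all 17 relations. For Col6a1 and Col6a2 Pearson's r was 0.965 and Spearman's rho 0.952, and r was 0.955 without the 2 libraries farthest from the Col6a1 median. For Col1a1 and Col1a2 r was 0.918 and rho 0.847 (r = 0.885 without 2 libraries), and for Col4a1 and Col4a2 r was 0.915 and rho 0.892 (0.886). In these 3 pairs the permutation p was 1e-05 for r and rho, the smallest that 100000 permutations can give, adjusted 3.4e-05. Col1a1 and Col3a1, which form separate molecules, had r = 0.708 and rho = 0.639 (permutation p = 0.00013 and 0.00101, adjusted 0.000368 and 0.00215), and r was 0.559 without CM1 3 and CM1 4. With group means subtracted, r for these 4 pairs was 0.974, 0.926, 0.928 and 0.760.

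Another 4 pairs, chosen by role, did not pass. Col3a1 and Col4a1 had r = 0.145 and rho = 0.107 (permutation p = 0.500 and 0.616, adjusted 0.515 and 0.616), Col7a1 and Col17a1 r = 0.226 and rho = 0.230 (0.288 and 0.277, adjusted 0.316 and 0.314), and Col1a1 and Col17a1 r = -0.263 and rho = -0.188 (0.213 and 0.379, adjusted 0.278 and 0.403). Without the 2 farthest libraries these r values were -0.121, 0.209 and 0.0237. Col1a1 and Col12a1 had r = 0.394 and rho = 0.386 (permutation p = 0.0567 and 0.0629, adjusted 0.0965 and 0.0973), and r was 0.352 without 2 libraries.

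Collagen genes also lie in neighbouring pairs, and 7 pairs lie within 100 kb. Of these, Col4a1 with Col4a2 and Col6a1 with Col6a2 are given above, and the other 5 were added after the data had been seen. The median r of the 7 was 0.899, against 0.0731 over all 780 pairs of tested collagen genes, as a description. Col3a1 and Col5a2, whose ends lie 24614 bases apart on chromosome 1, had r = 0.899 and rho = 0.859, and r was 0.813 without Ctrl 3 and CM1 4. Col4a4 and Col4a3 are read in opposite directions from starts 71 bases apart and had r = 0.900 and rho = 0.857, and r was 0.864 without CMA 2 and CMC 5. The permutation p of both pairs was 1e-05, adjusted 3.4e-05. Col4a3 stood at 17.7 CPM in CMA 2, 16.8 CPM in CM1 3 and 16.2 CPM in CMC 5, and Col4a4 at 42.1, 34.2 and 35.0 CPM in the same libraries, while CM1 4 was lowest in both at 3.14 and 10.2 CPM.

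The 71 bases between the 2 starts are shown because the pair shares them. They are the minus strand of chr1:82586850-82586920 (RefSeq, GRCm38.p6), read toward the Col4a4 start.

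Between Col4a4 and Col4a3: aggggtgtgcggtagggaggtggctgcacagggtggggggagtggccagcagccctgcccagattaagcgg

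Their GC content is 69.0%, they touch no annotated exon, and none of the 3 motifs is present, so no base is in capitals. Col4a6 and Col4a5 are also read in opposite directions, from starts 1308 bases apart on the X chromosome, and had r = 0.420 and rho = 0.392 (permutation p = 0.0427 and 0.0606, adjusted 0.0764 and 0.0973), with r = 0.258 without 2 libraries. The alternative collagen VI chains lie in a row on chromosome 9: Col6a6 and Col6a5 had r = 0.258 and rho = 0.243 (permutation p = 0.224 and 0.248, adjusted 0.281 and 0.291), and Col6a5 and Col6a4 r = 0.312 and rho = 0.357 (0.137 and 0.0863, adjusted 0.186 and 0.122). Without the 2 farthest libraries r was 0.189 and 0.375. High and low r values were thus both found among neighbours.

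**Figure D5:**
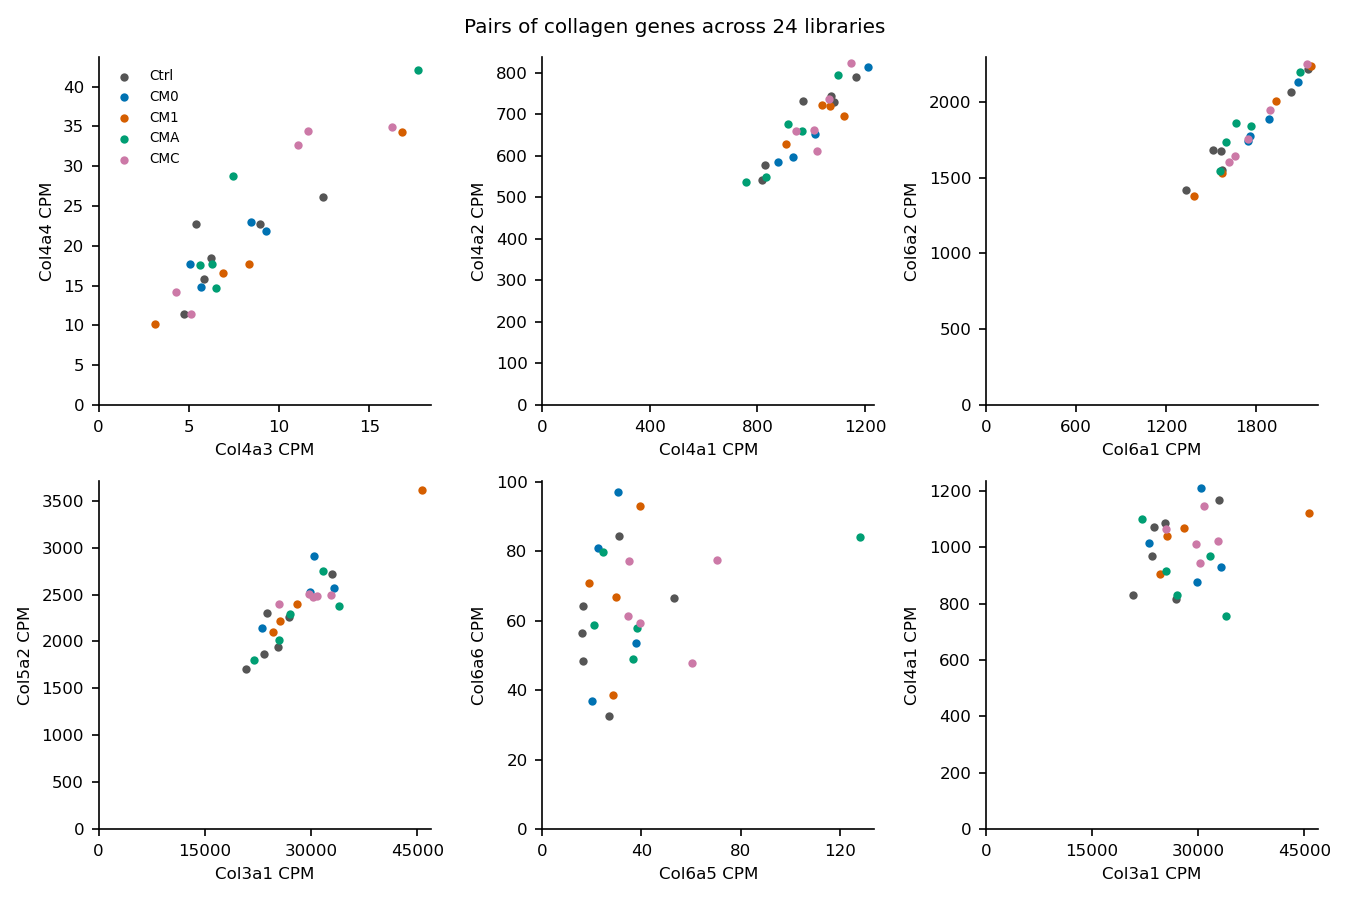
CPM of 6 pairs of collagen genes on linear axes from 0, with 1 point per library (n = 24) coloured by bandage. Points follow a line for Col4a3 and Col4a4 (r = 0.900), Col4a1 and Col4a2 (0.915), Col6a1 and Col6a2 (0.965) and Col3a1 and Col5a2 (0.899, correlations on log2 CPM), and scatter for Col6a5 and Col6a6 (0.258) and Col3a1 and Col4a1 (0.145).

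Collagen genes were also set beside summed marker lists, again after the data had been seen. Col3a1 and the fibroblast sum had r = 0.783 and rho = 0.649 (permutation p = 2e-05 and 0.00087, adjusted 6.18e-05 and 0.00211), with r = 0.601 without Ctrl 3 and CM1 4. Col4a1 and the endothelial sum had r = 0.696 and rho = 0.637 (permutation p = 0.00019 and 0.00094, adjusted 0.000497 and 0.00213), with r = 0.671 without Ctrl 1 and CMA 4. For Col17a1 and the basal keratinocyte sum r was 0.512 and rho 0.378 (permutation p = 0.0107 and 0.0701, adjusted 0.0215 and 0.104), and r was 0.338 without Ctrl 3 and Ctrl 6, so this relation rests in part on those libraries. For Col11a1 and the hair shaft sum r was 0.473 and rho 0.254 (permutation p = 0.0195 and 0.231, adjusted 0.0368 and 0.281), r was 0.350 without Ctrl 3 and Ctrl 5, and it was 0.135 without Ctrl 3, Ctrl 4 and CM1 3.

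Within classes, the median r between pairs was 0.588 over 45 fibrillar pairs, 0.428 over 15 collagen VI pairs, 0.342 over 15 collagen IV pairs, 0.303 over 3 network pairs, 0.0128 over 6 transmembrane pairs and -0.063 over 15 FACIT pairs. All pairs share libraries and the correction for composition, so these medians are a description. Fibrillar pairs ranged from -0.639 to 0.945.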

How the data were processed

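Whole wound tissue was sequenced after ribosomal RNA depletion with a Ribozero step and NEBNext Ultra library preparation, which does not mark strand, per the labels' protocols. The authors deposited raw counts per gene, made from reads demultiplexed with bcl2fastq 2.17, checked with FastQC, trimmed with cutadapt, aligned to GRCm38 with STAR and counted with featureCounts, per the submitters' processing notes, which also name DESeq2. For the annotation release, none was given in the sources used here. Symbols, coordinates and lengths were taken from GENCODE M21, and promoter windows from RefSeq.

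Counts were fitted in R 4.3.3 with edgeR 4.0.16 (filterByExpr, TMM, quasi-likelihood, all 24 libraries, Benjamini-Hochberg adjustment over all genes tested). Alternatives were DESeq2 1.42.0, limma 3.58.1 with voom and library quality weights, RLE factors, library totals, a filter at a total count of at least 10 and fits of only the groups compared. Libraries were also left out, each in turn, and Ctrl 3, Ctrl 4 and CM1 3 together, which stood apart in earlier results. The scripts were tested on simulated data. Genes named with tests are a panel of 25 main members of the classes plus the 2 of smallest p in each comparison with Ctrl, in the mean of the media and among the 5 groups. Lists for collagen synthesis, breakdown and receptors and 10 cell type lists were summarised by counts and sums. The members, lists and tests were chosen with earlier results of these data known, and 5 of the 7 neighbouring pairs and the marker sum relations were added after seeing the data. Replicates are numbered in accession order, and nothing in the labels says more of their independence than that they are separate samples, so p-values measure the spread between these samples. Library totals were 7267879 to 11985292 counts.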

Additional observations from a re-analysis of the deposited data

Results flagged for a closer look

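In 5 of 200 group values checked (2.5%) 1 library lay far from the rest of its group, where chance alone marks about 1 in 20 groups. Col1a1 in CMC 2 was the lowest of 5 at 22979 CPM. Col18a1 was far above the other CM0 libraries in CM0 4, at 492 CPM, and far below the other CMC libraries in CMC 2, at 235 CPM. Col17a1 in CM0 2 was the highest of 4 at 836 CPM. Col7a1 took 0.0848% of the counts in Ctrl 5, the highest share of the 6 controls.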

How the results depend on the processing

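No paired analysis was possible because the labels give the libraries no replicate numbers. Under each alternative and with each library left out in turn, 0 collagen genes passed the adjusted threshold in the comparisons run. The number at an unadjusted p under 0.05 ran, with 1 library left out, from 0 to 4 in CM0, 1 to 5 in CM1, 0 to 2 in CMA, 1 to 6 in CMC and 0 to 8 for the mean of the media. The highest counts were reached without Ctrl 6, and in CMA without CMA 3. The shares over all genes in those fits are not given here, so these counts cannot be set against them. Several values changed sign, and the cause was not tested. With 1 library left out, the median over collagen genes ran from -0.073 to 0.12 in CM0 against Ctrl and from -0.14 to 0.061 in CM1 against CM0. The log2 fold change of Col1a1 ran from -0.068 to 0.092 in CM0 and from -0.11 to 0.24 in CM1, and that of Col1a2 from -0.025 to 0.24 in CM1. For CMA against Ctrl, the log2 ratio of Col3a1 to Col1a1 ran from -0.069 to 0.030 and that of Col1a1 to Col1a2 from -0.0047 to 0.048. With library totals Col1a1 was at -0.019 in CM0 and -0.012 in CMC, and r of Col3a1 and Col4a1 was -0.0128. Without the 2 farthest libraries that r was -0.121, and r of Col1a1 and Col17a1 was 0.0237. Without Ctrl 3, Ctrl 4 and CM1 3 the mean-of-media value of Col11a2 was 0.053, the log2 ratio of Col1a1 to Col1a2 was 0.034 in CM1 and 0.014 in CMC, and r of Col11a1 with the hair shaft sum was 0.135. Counting types VII, XV and XVIII with the basement membrane class raised its share from 0.173% to 0.289%. The 4 collagen genes averaging under 1 CPM were not tested.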
